A study of Caenorhabditis elegans with 2 samples.

Results

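The proteasome and CDC-48 genes of Caenorhabditis elegans were examined in ChIP-seq of NHR-237, a nuclear hormone receptor (a DNA-binding protein of the receptor family that binds small lipophilic ligands in its known members). The set was chosen by gene name: protein-coding genes of the rpn-, rpt-, pas- and pbs- series with a number, together with cdc-48.1, cdc-48.2 and ufd-1. It comprised 36 of the 19985 protein-coding genes in the annotation, and was divided into 14 genes of the core particle, 19 of the regulatory particle and 3 CDC-48 genes. Chromatin came from whole L4 larvae, males and females pooled, of strain OP228 (unc-119(ed3) III; wgIs228), a transgenic line that stably expresses NHR-237 with GFP and FLAG at its C terminus. The 2 biological replicates formed 1 group, with no second condition. The sources used here do not say which cells express the transgene or how the worms were grown, and they give the age as unknown beyond the larval stage. In whole animals, a site bound in a few cells and a site bound weakly in many cells cannot be told apart.

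The proteasome degrades proteins that carry ubiquitin chains. Its core particle is a barrel of alpha and beta rings with the cutting sites inside, on beta subunits, and its regulatory particle consists of a base, with a ring of ATPases that unfold and thread the substrate, and a lid that recognises substrates and removes ubiquitin. CDC-48 (p97 or VCP in mammals) is an AAA ATPase that pulls ubiquitinated proteins out of complexes and membranes before degradation, and UFD-1 is a cofactor that helps it bind ubiquitin chains. In C. elegans the transcription factor SKN-1A raises the expression of proteasome subunit genes when proteasome capacity is short.

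For each gene the strongest region with its summit within 2000 bp of an annotated 5′ end was taken from 4 deposited lists: the pooled list made from both replicates (26787 regions), the list of each replicate (30000 regions each), and the 237 regions that passed the irreproducible discovery rate procedure (IDR peaks), which is meant to keep regions that rank high in both replicates. Rank 1 is the highest signal, the authors' own value for a region. The pooled and replicate lists include background regions, so presence in them says little and rank carries the information. The IDR peaks were exactly the first 237 ranks of the pooled list, and single IDR peaks can rank low in 1 replicate, so an IDR peak alone does not show that the replicates rank a region alike. Signal had a median of 9.42 in the pooled list, 6.79 in replicate 1 and 4.35 in replicate 2, and its scale differs between lists. Read counts per region are not part of these lists, and the sequencing depth is therefore unknown. No region of any list lay within 2000 bp of a 5′ end of nhr-237 itself, and the pooled and replicate lists were made with 1 further file of a kind that was not stated in the sources used.

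In the pooled list the genes with the strongest signal close to their own 5′ end were cdc-48.1, rpn-3 and rpn-9. Among them only cdc-48.1 was within the first 1000 ranks of both replicates. The regions in front of these genes are shown on the gene's strand, 5′ to 3′, from the ce11 sequence in RefSeq. The cdc-48.1 region is the whole deposited region, chrII:10563479-10563676 on the minus strand. For rpn-3 (chrIII:8447087-8447287, plus strand) and rpn-9 (chrII:11239055-11239255, minus strand) the 100 bases to either side of the pooled summit are shown. The fourth sequence, chrII:8138235-8138435 on the plus strand, is the stretch of cdc-48.2 at the same distance upstream as the cdc-48.1 summit, where no region of the 3 lists had its summit. Capitals mark matches to 8 short motifs that were searched on both strands.
cdc-48.1 region: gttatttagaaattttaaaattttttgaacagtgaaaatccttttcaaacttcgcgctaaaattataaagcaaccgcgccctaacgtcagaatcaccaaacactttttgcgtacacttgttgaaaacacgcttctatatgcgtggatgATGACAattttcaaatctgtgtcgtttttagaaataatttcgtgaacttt
rpn-3 region: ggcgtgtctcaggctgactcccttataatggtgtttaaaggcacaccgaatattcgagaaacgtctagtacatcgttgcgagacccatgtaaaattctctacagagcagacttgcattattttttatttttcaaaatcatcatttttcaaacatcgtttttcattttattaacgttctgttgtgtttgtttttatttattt
rpn-9 region: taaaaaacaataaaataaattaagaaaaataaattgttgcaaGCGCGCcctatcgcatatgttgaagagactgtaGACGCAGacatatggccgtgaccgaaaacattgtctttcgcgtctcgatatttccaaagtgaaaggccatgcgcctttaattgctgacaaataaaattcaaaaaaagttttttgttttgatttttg
cdc-48.2 window: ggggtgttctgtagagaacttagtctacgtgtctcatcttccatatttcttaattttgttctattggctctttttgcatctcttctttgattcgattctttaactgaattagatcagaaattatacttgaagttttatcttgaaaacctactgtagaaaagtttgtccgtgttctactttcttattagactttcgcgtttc

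The cdc-48.1 sequence held 1 match, TGTCAT read on the other strand and starting at base 149 of the printed run. TGTCAT and TATCAT are forms of the core that SKN-1 binds. The rpn-9 sequence held GCGCGC at base 43 and CTGCGTC on the other strand at base 76. Neither the rpn-3 sequence nor the cdc-48.2 stretch held any of the 8 motifs. GC content was 32.8% for cdc-48.1, 33.8% for rpn-3, 34.3% for rpn-9 and 33.3% for the cdc-48.2 stretch.

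Signal was concentrated at a few of the 36 genes, led by cdc-48.1, and most subunits had only weak regions. IDR peaks lay within 2000 bp of 3 genes (8.33%), cdc-48.1, rpn-3 and pbs-2, against 1.42% of all protein-coding genes (284 genes). Among the first 1000 pooled ranks were regions of 6 genes (16.7%), against 5.40% of all protein-coding genes. These were cdc-48.1 at rank 23, rpn-3 at 148, pbs-2 at 203, rpn-9 at 423, rpt-2 at 839 and pas-5 at 907. A pooled region of any rank was found for 30 genes (83.3%), against 67.4% of all. None of the 36 genes is on the X chromosome, and among autosomal genes alone the background shares were 1.3% for IDR peaks and 5.34% for the first 1000 ranks. These are counts beside a background, with no test, since there was 1 group and the genes and counts were chosen with results known.

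The counts over the first 1000 ranks were lower within single replicates, and only part of the genes were shared. Replicate 1 had 4 of the 36 genes there (11.1%; cdc-48.1, rpn-3, pbs-2 and pas-7), against 5.15% of all protein-coding genes. Replicate 2 also had 4 (cdc-48.1, pbs-2, rpt-2 and rpn-9), against 4.95% of all. Both replicates had cdc-48.1 and pbs-2 (5.56% of the 36), against 1.89% of all. The regions of rpn-3 and rpt-2 were thus high in 1 replicate each.

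**Figure D1:**
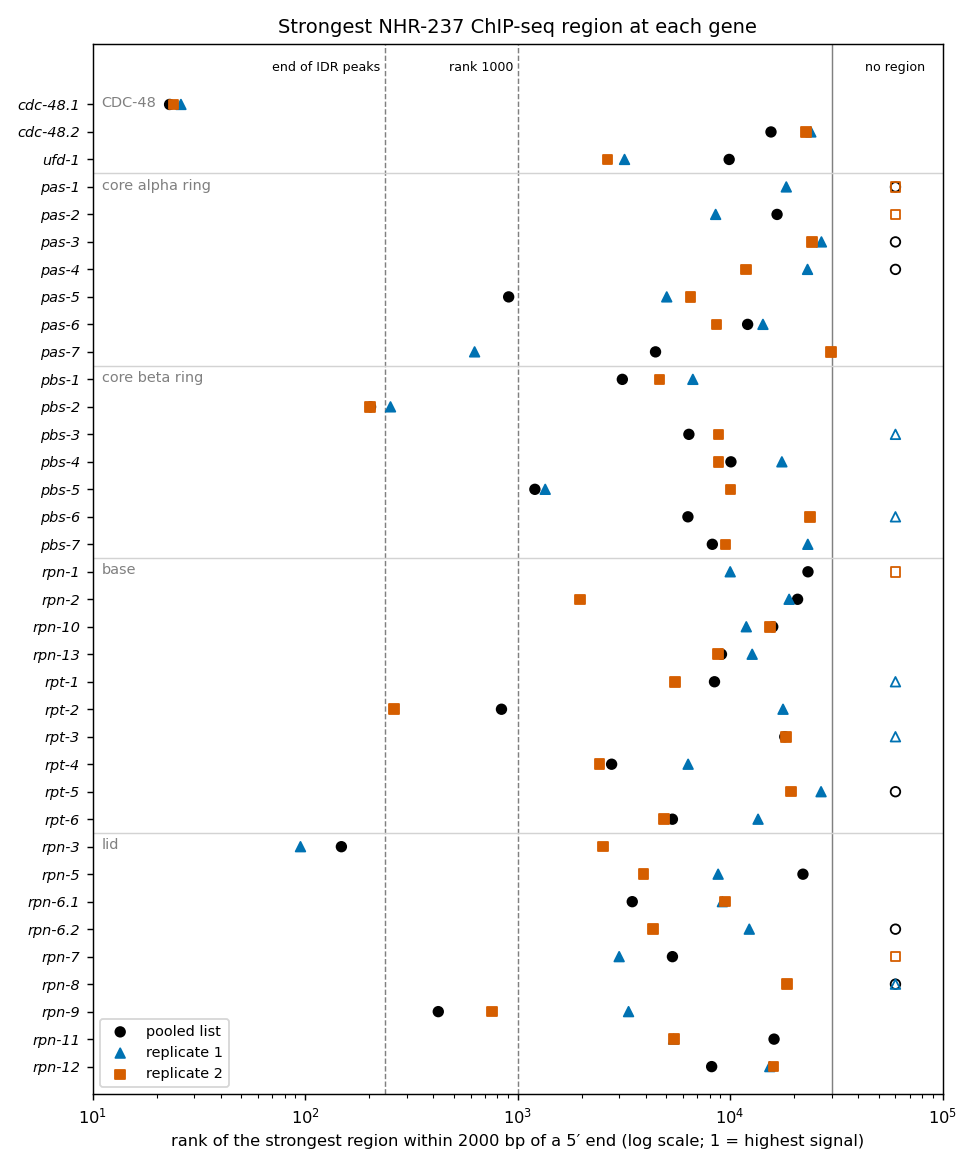
Rank of the strongest region within 2000 bp of a 5′ end for each of the 36 genes (log scale, 1 is the highest signal), in the pooled list (black circles), replicate 1 (blue triangles) and replicate 2 (orange squares). Dashed lines mark the last IDR rank, 237, and rank 1000, the solid line marks the end of the replicate lists, and open symbols at the right mark genes with no region; the 3 symbols of cdc-48.1 lie together at ranks 23 to 26, and those of most other genes are spread.

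The gene cdc-48.1, 1 of the 2 genes for the CDC-48 ATPase, had the strongest region of the set by a wide margin. Its pooled region of 198 bp (II, 10563479 to 10563676) had its summit 161 bp upstream of the 5′ end (gene II, 10560036 to 10563407, minus strand), inside no gene. Signal there was 139 in the pooled list, 88.3 in replicate 1 and 50.2 in replicate 2. The ranks were 23, 26 and 24, so all 3 lists placed it near the top, and the summits were 183 bp upstream in replicate 1 and 156 bp upstream in replicate 2. It was the only region of the pooled list within 2000 bp of this 5′ end. Its −log10 q was 2.07, the maximum of the pooled list, which 413 regions share. Of other genes, C06A1.6 and C06A1.7 had 5′ ends within 2000 bp of the summit, at 1110 bp and 1323 bp.

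The paralog cdc-48.2 had no comparable region. Its best pooled region ranked 15570, with a signal of 8.91, below the list's median, and its summit was 794 bp upstream, 784 bp from the 5′ end of the neighbouring gene ctns-1, which encodes a lysosomal cystine transporter. No region of either replicate overlapped it. The best ranks for cdc-48.2 in the replicates were 23979 (signal 5.41) in replicate 1 and 22761 (3.46) in replicate 2, at other positions, both below the median signal of their list. The proteins are near copies: translated from the annotation, they have 809 residues (CDC-48.1) and 810 residues (CDC-48.2), and 720 of 817 aligned columns were identical (88.1%). The longest exact run shared by the coding sequences was 35 bases. The cdc-48.1 region shared a run of at most 11 bases with the 2000 bp upstream of cdc-48.2. The sequences searched differed in length and no other pair of genes was compared, so whether either run exceeds chance was not tested.

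The third CDC-48 gene, ufd-1 (IV, 12329408 to 12330890, minus strand), had its best pooled region at rank 9895 (signal 10.4), inside F19B6.3. Its summit was 1951 bp downstream of the inner of 2 annotated 5′ ends of ufd-1. The outer end, at 12330890, was more than 2000 bp from the summit. In the replicates the best regions of ufd-1 lay elsewhere and ranked higher: 3184 in replicate 1 (signal 11.0, 150 bp upstream) and 2648 in replicate 2 (signal 7.75, 714 bp upstream). These regions do not overlap each other, and the pooled region was overlapped in replicate 1 (rank 3914, signal 10.4) and not in replicate 2.

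**Figure D2:**
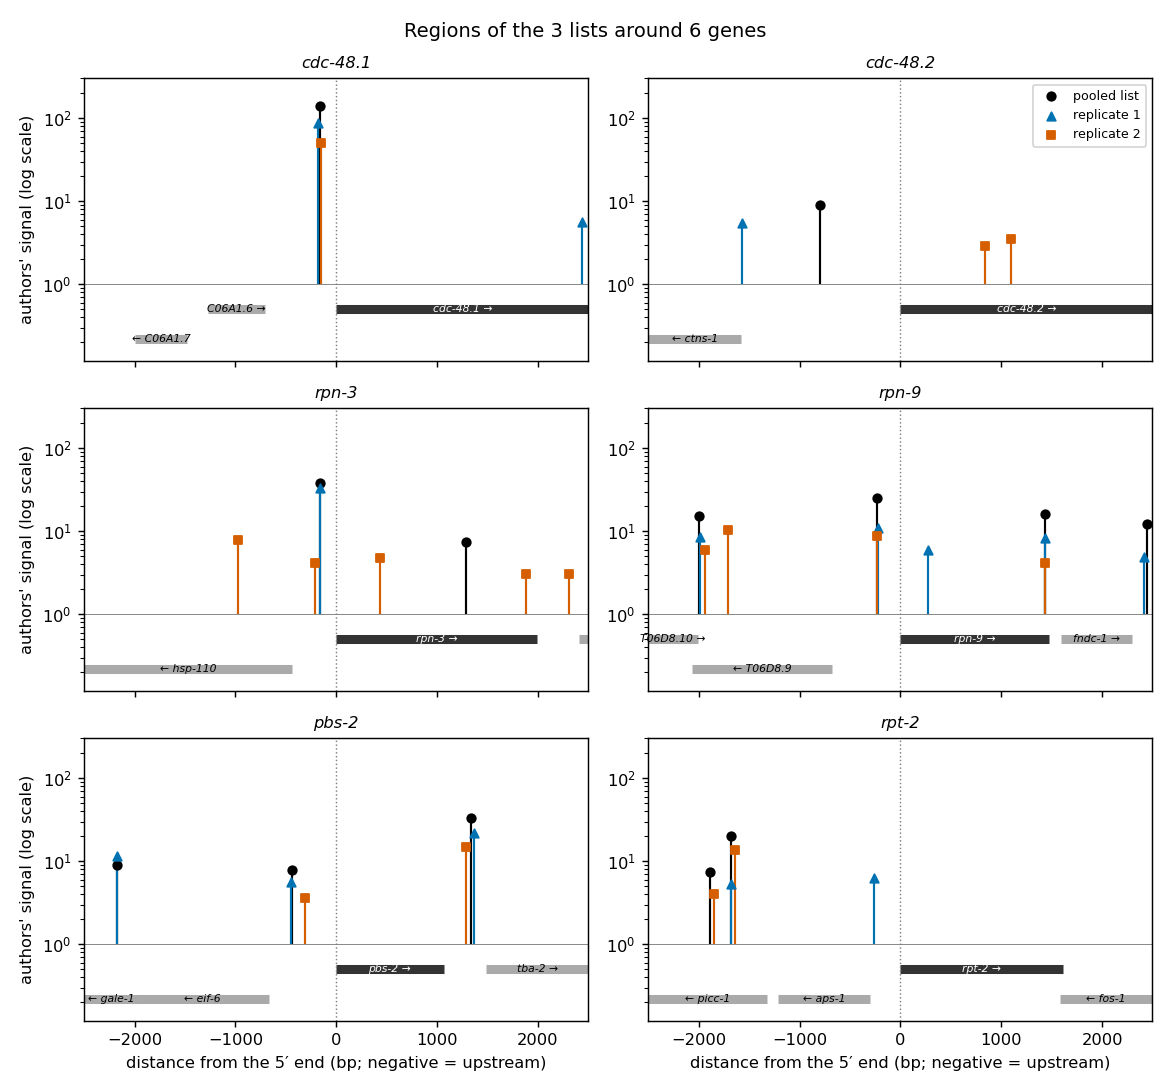
Summits of all regions within 2500 bp of the 5′ end of 6 genes, drawn as lines up to the authors' signal (log scale, lines start at 1) for the pooled list (black), replicate 1 (blue) and replicate 2 (orange), with protein-coding genes as bars whose arrows give the direction of transcription. The cdc-48.1 summits reach 139, 88.3 and 50.2 at one place, the best region of pbs-2 lies in front of tba-2, and that of rpt-2 lies in picc-1.

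Within the regulatory particle, the strongest pooled regions near 5′ ends were those of the lid genes rpn-3 and rpn-9. The lid gene rpn-3 encodes a scaffold subunit. Its pooled region (III, 8447017 to 8447356; gene III, 8447353 to 8449346, plus strand) had its summit 166 bp upstream of rpn-3 and 278 bp upstream of hsp-110, which encodes a chaperone of the Hsp110 family. The genes are head to head, with 443 bp between them, and an ncRNA gene, C30C11.14, also lies within 500 bp of the summit, so the region belongs to no single gene by position. Signal was 37.6 in the pooled list (rank 148), 33.0 in replicate 1 (rank 95) and 4.11 in the overlapping region of replicate 2 (rank 16818). The region was therefore near the top in replicate 1 and below the list's median in replicate 2, where the best region within 2000 bp of rpn-3 was another, 970 bp upstream (rank 2518, signal 7.84).

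The lid gene rpn-9 encodes another scaffold subunit, and its region was moderate and present in both replicates. The pooled summit lay 236 bp upstream (II, 11238985 to 11239324; gene II, 11237447 to 11238919, minus strand), between rpn-9 and the head-to-head gene T06D8.9, whose 5′ end was 442 bp away. Signal was 24.8 in the pooled list (rank 423), 10.9 in replicate 1 (rank 3326) and 8.79 in replicate 2 (rank 1559), above the median of each list. Its −log10 q was 1.97, and it was not an IDR peak. In replicate 2 a stronger region, at rank 759 (signal 10.4), lay 1712 bp upstream.

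The other 7 lid genes ranked lower in the pooled list, although rpn-7 (rank 3004, signal 11.1) was level with rpn-9 in replicate 1. The pooled ranks were 3462 for rpn-6.1, 5351 for rpn-7, 8185 for rpn-12, 16096 for rpn-11 (the deubiquitinase of the lid) and 22017 for rpn-5. For rpn-6.1 and rpn-7 the summit was nearer to the head-to-head neighbour, F57B9.1 or F49C12.9, and for rpn-12 it lay in rad-23, 127 bp from the 5′ end of that gene, which encodes a shuttle protein that brings ubiquitinated substrates to the proteasome. The paralog of rpn-6.1, rpn-6.2, had no pooled region, and its replicate ranks were 12307 and 4347. For rpn-8, the partner of RPN-11, the only region was in replicate 2 (rank 18521, 100 bp downstream).

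Among the 10 base genes the highest rank was that of rpt-2, which encodes an ATPase of the base ring, and that region lay far from its 5′ end. The summit was 1679 bp upstream of rpt-2 (V, 6019178 to 6019517; gene V, 6016059 to 6017669, minus strand), within picc-1 and 354 bp downstream of that gene's 5′ end. A further gene, aps-1, lies between them. Signal was 20.1 in the pooled list (rank 839), 5.30 in replicate 1 (rank 24843) and 13.7 in replicate 2 (rank 261). Replicate 2 thus held it near the top and replicate 1 near the bottom. Close to rpt-2 itself there was a region in replicate 1 alone, 259 bp upstream (rank 17740, signal 6.30).

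The other 5 ATPase genes of the base ranged from rank 2768 (rpt-4) through 5349 (rpt-6), 8441 (rpt-1) and 18086 (rpt-3) to no pooled region (rpt-5, with replicate ranks of 26792 and 19395). The large scaffold genes rpn-1 and rpn-2 ranked 23247 and 20772, although rpn-2 had rank 1960 (signal 8.35) in replicate 2, 29 bp upstream. The genes of the ubiquitin receptors, rpn-10 and rpn-13, ranked 15866 and 9103. An IDR peak was near 0 of the 10 base genes, which cannot be distinguished from the 1.42% of all genes.

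In the core particle the strongest region belonged by distance to another gene. The gene pbs-2 encodes the beta subunit whose counterpart in yeast and mammals has trypsin-like activity. Its IDR peak (I, 12966776 to 12967115; gene I, 12967216 to 12968280, minus strand) lay 1334 bp downstream of its 5′ end, past the end of the gene, and 151 bp upstream of the 5′ end of tba-2, an alpha-tubulin gene. Signal was 33.2 in the pooled list (rank 203), 21.9 in replicate 1 (rank 252) and 14.7 in replicate 2 (rank 202). The region was high in all 3 lists, with summits 1367 bp downstream in replicate 1 and 1289 bp downstream in replicate 2. When each region was assigned to its nearest 5′ end alone, pbs-2 had no IDR peak.

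The alpha-ring gene pas-5 (I, 10566350 to 10567300, plus strand) had its best pooled region 1131 bp upstream, where its own 5′ end was the nearest of any protein-coding gene and the snoRNA gene F25H2.15 lay within 500 bp. Signal was 19.6 in the pooled list (rank 907), 9.74 in replicate 1 (rank 5030) and 6.01 in replicate 2 (rank 6510), above the median of each list. The next core gene, pbs-5, encodes the beta subunit with chymotrypsin-like activity in yeast and mammals. Its region ranked 1205 (signal 18.1) and was 1590 bp downstream, nearer to dus-2 (376 bp), with an overlapping region in replicate 1 (rank 1348, signal 13.6) and none in replicate 2. The alpha-ring gene pas-7 ranked 627 in replicate 1 (signal 16.4), 4455 in the pooled list (13.1) and 29841 in replicate 2 (2.85), so the replicates differed widely there.

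A pooled region was found for 7 of 7 beta-ring genes and 4 of 7 alpha-ring genes, beside 67.4% of all protein-coding genes. In replicate 1 the counts ran the other way, with 5 of 7 beta genes and 7 of 7 alpha genes, beside 70.6% of all, and in replicate 2 they were 7 and 5, beside 73.2% of all. The other beta genes ranked 3109 (pbs-1), 6329 (pbs-6), 6396 (pbs-3), 8246 (pbs-7) and 10087 (pbs-4). Of the other alpha genes, pas-6 ranked 12088 and pas-2 16629, and pas-1, pas-3 and pas-4 had no pooled region. The replicate ranks of pas-3 were 26895 and 24293, those of pas-4 were 23139 and 11864, and pas-1 had rank 18380 in replicate 1 and no region in replicate 2. Many of these regions are low in lists that include background, and no order between single weak members was read from them.

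By class, the median best rank in the pooled list was 7321 for the core particle, 9103 for the regulatory particle and 9895 for the CDC-48 genes, against 16258 for all protein-coding genes, with a gene without a region placed at the bottom. The order of the classes in the pooled list was not that of the replicates, in which the CDC-48 genes came first and the core particle last. In replicate 1 the medians were 15896 for the core particle, 12307 for the regulatory particle and 3184 for the CDC-48 genes, against 16331 for all genes. In replicate 2 they were 9786 for the core particle, 5506 for the regulatory particle and 2648 for the CDC-48 genes, against 15660 for all genes. An IDR peak was near 1 of 14 core genes (7.14%), 1 of 19 regulatory genes (5.26%) and 1 of 3 CDC-48 genes (33.3%), and the first 1000 pooled ranks held 2, 3 and 1. With 1 or a few genes behind each share, no class was separated from the others. The 3 CDC-48 genes span rank 23 to rank 15570 in the pooled list, and their median there is the rank of ufd-1.

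**Figure D3:**
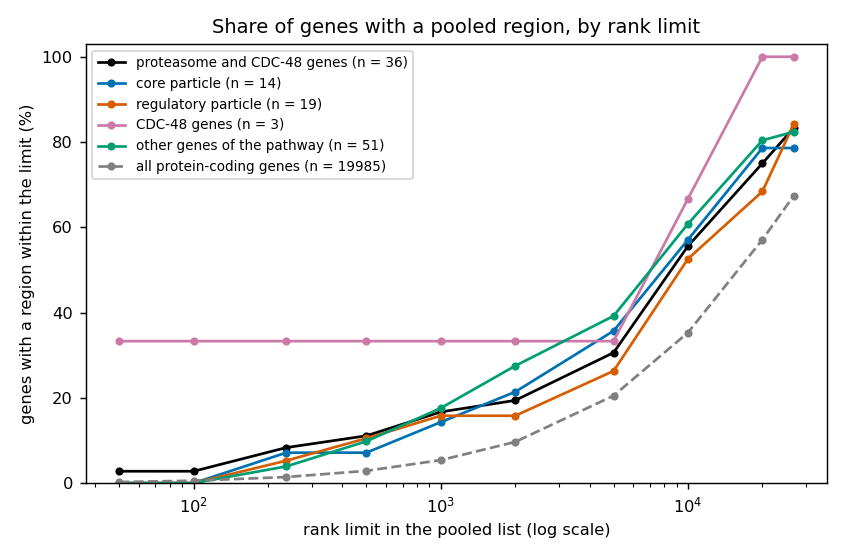
Share of genes (%) whose strongest pooled region within 2000 bp ranks at or above a limit (log scale), for the 36 genes, their 3 classes, 51 other genes of the pathway and all 19985 protein-coding genes (dashed grey). At rank 1000 the 36 genes stand at 16.7% and all genes at 5.40%, at rank 10000 at 55.6% and 35.3%; the CDC-48 curve rests on 3 genes.

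The 36 genes also stood above all genes well below the top of the pooled list, with 11 (30.6%) within rank 5000, against 20.5% of all genes, and 20 (55.6%) within rank 10000, against 35.3%. Of the 20 best pooled regions within rank 10000, 11 (55%) were overlapped by a region in both replicates, 4 in replicate 1 only, 4 in replicate 2 only and 1, that of pbs-3, in neither. Of the best regions of all genes within that rank, 51.7% were overlapped in both. Over all 30 best pooled regions the count was 15 (50%), against 34.6% of all genes with a pooled region, and cdc-48.2 and rpn-1 also had no overlapping region in either replicate.

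A larger share of summits lay just upstream of the 5′ end in these genes than in all genes. Of the 30 best pooled regions, 11 (36.7%) had their summit within 500 bp upstream, against 19.5% of 13477 protein-coding genes with a pooled region, and 14 (46.7%) lay downstream, against 45.6%. The median distance was 605 bp, against 888 bp. In the regulatory particle 7 of 16 summits (43.8%) were within 500 bp upstream, and in the core particle 3 of 11 (27.3%). For 19 genes (63.3%) the own 5′ end was the nearest to the summit, against 70.3% of all genes, and for 11 genes another gene was nearer. Of the 36 genes, 24 (66.7%) stand head to head with their upstream neighbour, at any gap, against 45.4% of all protein-coding genes. Of the 11 genes with a summit within 500 bp upstream, cdc-48.1, pbs-3, rpn-10, rpn-11 and rpt-1 have that neighbour on the same strand. For pbs-3 and rpn-10 the summit lay inside that neighbour, ulp-2 or mrpl-9. The pooled ranks of the 11 regions ran from 23 (cdc-48.1) to 16096 (rpn-11), so some are weak regions in a list that includes background. The neighbour is head to head across 352 to 677 bp for pbs-6, rpn-3, rpn-7 and rpn-9. It is head to head at 3538 bp for pbs-4 and 1405 bp for rpt-6. Among all 36 genes, 9 lie less than 500 bp behind a gene on the same strand, and pbs-3, rpn-10 and rpn-11 are among these 9. Worm genes spaced this closely on 1 strand are often transcribed together as operons, and their transcripts are often trans-spliced, which can put the annotated 5′ end downstream of where transcription starts.

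**Figure D4:**
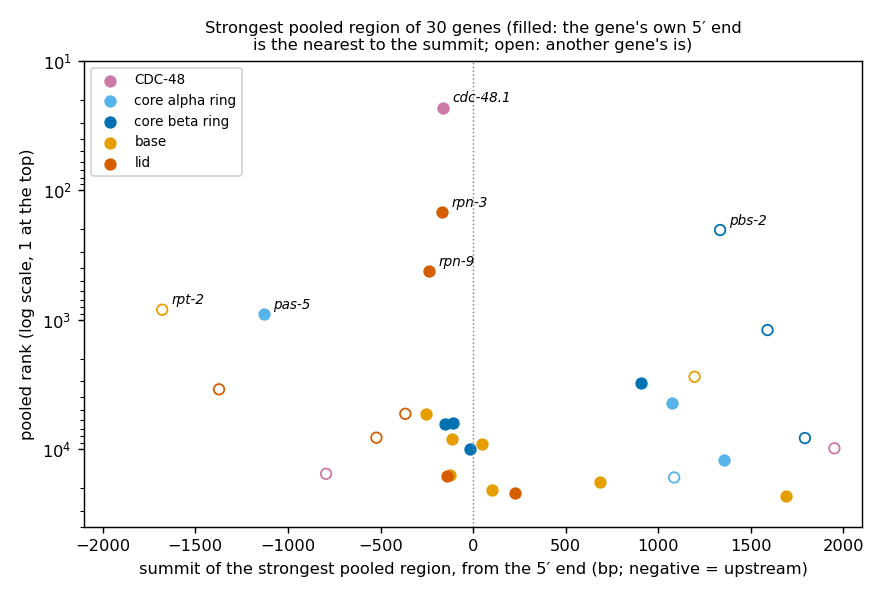
Distance from the gene's 5′ end to the summit of its strongest pooled region (bp, negative is upstream) against the rank of that region (log scale, rank 1 at the top), for the 30 genes with a pooled region, coloured by part of the complex. Filled points are regions whose nearest 5′ end is the gene's own and open points are nearer to another gene; cdc-48.1, rpn-3 and rpn-9 lie within 500 bp upstream as filled points, while pbs-2 and rpt-2 are open and over 1000 bp away.

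Short motifs were counted in the promoters of the 36 genes (250 bp upstream to 50 bp downstream of the outermost 5′ end) and, separately, in 201 bp around pooled summits, on both strands. TGTCAT was present in 13 of the 36 promoters (36.1%), against 16.3% of all promoters, and TATCAT in 6 (16.7%), against 19.4%. GCGCGC was in 5 (13.9%), against 3.57%, and CTGCGTC in none, against 4.34%. AGGTCA, a half-site of many nuclear receptors, was in 2 (5.56%), against 8.23%, and the related AAGTCA in 5 (13.9%), against 13.3%. GAGAGA was in 7 (19.4%), against 21.8%. TTTCAG, letters of the splice acceptor in worms, was in 24 (66.7%), against 51.7%. Median GC was 34.3% in both sets.

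At the summits themselves, GAGAGA was as frequent as in all pooled regions and rarer than in IDR peaks. GAGAGA was present in 4 of the 30 summit windows (13.3%), against 37.6% of IDR peaks and 13.4% of all pooled regions. CTGCGTC and GCGCGC were in 1 window each (3.33%), against 14.8% and 13.1% of IDR peaks and 2.67% and 1.97% of all pooled regions. TGTCAT was in 4 windows (13.3%), against 8.86% of IDR peaks and 9% of all pooled regions, at cdc-48.1, pbs-1, pbs-6 and rpn-7. AGGTCA was in 2 (6.67%), at pbs-2 and rpn-11, against 6.75% of IDR peaks and 5.12% of all pooled regions. TATCAT was in 3 (10%), against 8.02% of IDR peaks and 10.9% of all pooled regions. AAGTCA was in 1 (3.33%), against 6.33% and 8.77%, and TTTCAG in 9 (30%), against 17.7% and 35.2%. Most of the 30 regions rank far below the IDR peaks, and median GC was 36.8% in their windows, against 43.3% in those of IDR peaks and 35.3% in all pooled regions. A match is a description of these letters and not a binding site.

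The other genes of the pathway were a chosen list of 51, with some and not necessarily all members of each family. They were taken from ubiquitin, its E1 and E2 enzymes, cullin ligases, CDC-48 cofactors, proteasome-associated proteins and the SKN-1A pathway. These 51 genes also stood above the background at the first 1000 ranks. IDR peaks lay near 2 (3.92%), against 1.42% of all protein-coding genes, and pooled regions near 42 (82.4%), against 67.4%. Within the first 1000 pooled ranks were 9 (17.6%), against 5.40%. The E2 enzymes, which hand ubiquitin to its targets, accounted for 4 of these 9, out of the 11 E2 genes chosen for the list. The E2 gene let-70 had an IDR peak (signal 37.9, rank 146) 751 bp upstream of its 5′ end and 731 bp upstream of klc-1, with ranks of 119 and 368 in replicates 1 and 2. The snoRNA gene M7.15 lay within 500 bp of that summit, nearer than either 5′ end. The E2 gene ubc-6 ranked 253 (signal 30.1, 301 bp upstream), with 315 and 189 in the replicates. The other E2 genes there were ubc-3 at rank 400, with its summit nearer to lsm-6, and ubc-7 at rank 935, 241 bp upstream. The overlapping regions of replicates 1 and 2 ranked 390 and 2295 for ubc-3, and 2535 and 3495 for ubc-7. Of the 51 genes, only let-70 and ubc-6 were within the first 1000 ranks of both replicates (3.92%), against 1.89% of all genes.

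The second IDR peak of the list, near elc-1 (elongin C, a subunit of cullin ligases, signal 32.8, rank 208), was 1811 bp upstream of that gene and 195 bp from the 5′ end of Y82E9BR.3. The ncRNA genes Y82E9BR.27 and Y82E9BR.30 lay within 500 bp of its summit. The overlapping regions ranked 276 in replicate 1 and 3409 in replicate 2. Among 12 CDC-48 cofactors and relatives, ufd-3 ranked 752 with its summit 185 bp upstream, and ubxn-3 ranked 604 with its summit nearer to F48A11.4. Ranks in replicates 1 and 2 were 773 and 2391 for ufd-3, and 1455 and 2919 for ubxn-3. The gene ubq-2, a precursor of ubiquitin fused to a ribosomal protein, ranked 647, 488 bp upstream, in a region nearer to frg-1. The overlapping regions ranked 708 in replicate 1 and 24481 in replicate 2 (signal 3.3, below that list's median). The gene skn-1 itself ranked 261 (signal 29.6), 1645 bp upstream of 1 of its annotated 5′ ends and inside the gene, with ranks of 1191 and 160 in replicates 1 and 2. The ncRNA genes T19E7.26 and T19E7.27 lay within 500 bp of that summit. Of the 7 genes of proteasome-associated proteins 0 were within the first 1000 ranks, a count too small to set against the 5.40% of all genes.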

How the data were processed

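ChIP-seq of tagged NHR-237 in L4 larvae was analysed from the region lists deposited by the authors on ce11, which has the sequence of WBcel235. Per the README deposited with the samples, each replicate's list came from 1 alignment and 1 further file, the pooled list from both alignments and the same file, and the IDR list from these lists. The deposited signal values and the deposited −log10 q values are the authors' own. Signal was used to describe and rank regions within a list (ties at the smallest rank number), and q only as a description. The sources used here do not name the aligner, the caller, the scale or the thresholds. The lists on ce10 were not analysed here.

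Genes and 5′ ends of protein-coding transcripts came from Ensembl release 115, and sequences from the RefSeq genome. A region belonged to every gene with a 5′ end within 2000 bp of its summit. Medians placed a gene without a region below the end of the list. CDC-48 proteins were translated from the annotation and aligned globally with Biopython 1.88. The computation used Python 3.11.15, pandas 2.3.3 and NumPy 2.4.6, and the assignment was tested on simulated regions.

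The members, the classes, the 51 other genes and the motifs were chosen with earlier results of these data known. Values in every list were given for genes with an IDR peak or within the first 1000 pooled ranks, the 3 best of each class and the cdc-48 paralogs. Other genes of the pathway were named if within that limit. No test was made: there is 1 group, and genes are not replicates. Depth is unknown, so no interval or limit of detection was given. Alternatives were other distances, the nearest 5′ end only, a promoter window, any overlapping base, the outermost 5′ end, other rank limits, autosomal ranks, IDR peaks of higher signal, and each replicate alone.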

Additional observations from a re-analysis of the deposited data

How the results depend on the processing

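Of 49 alternative values, 30 stayed within 1.5 times the count as reported, or, for medians, within the spread between replicate lists, and 19 did not. That spread came from the same replicate medians that were also scored as alternatives, so for these the comparison is partly circular. Settings that gave no median are not among the 49. The gene cdc-48.1 had an IDR peak and was within the first 1000 ranks under every alternative run. With summits within 1000 bp or 500 bp, or from 1000 bp upstream to 200 bp downstream, the first 1000 pooled ranks held 3 genes (8.33%) in place of 6 (cdc-48.1, rpn-3 and rpn-9), against 3.37%, 2.35% and 2.92% of all genes, and pbs-2 lost its IDR peak, as it did with the nearest 5′ end only. Under these 4 alternatives 1 gene, cdc-48.1, was within the first 1000 ranks of both replicates, against 0.736% to 1.14% of all genes. A pooled region was then found for 18 genes at 500 bp, against 32.6% of all, and for 18 in the promoter window, against 36.8%. Among IDR peaks at or above the median signal, 1 gene was left, cdc-48.1, against 0.686% of all. The median rank of the regulatory particle was 18086 at 1000 bp, 22017 at 500 bp and 18086 with the nearest 5′ end only, and that of the CDC-48 genes was 15570, 17519 and 17519, against 23648 for all genes with the nearest 5′ end only. At 1000 bp and 500 bp most core genes, and most of all genes, had no region, so no median was given.

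Each replicate alone, with its 237 strongest regions in place of the IDR peaks, gave 2 genes: cdc-48.1 and pbs-2 without replicate 1, and cdc-48.1 and rpn-3 without replicate 2, against 1.38% of all genes either way. The first 1000 ranks then held 4 genes, against 4.95% to 5.15% of all, and 31 to 32 genes had a region, against 70.6% to 73.2%. The median was 9786 to 15896 for the core particle, 5506 to 12307 for the regulatory particle and 2648 to 3184 for the CDC-48 genes. No paired analysis was possible because there was only 1 group. Fewer regions near a gene follow from a smaller distance by construction. Which weak regions are background was not tested.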
